A study of Mus musculus with 12 samples.

Results

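The genes described here are 6 transcription regulators of the early oocyte: Figla, Nobox, Sohlh1, Sohlh2, Lhx8 and Taf4b. They were chosen by name, with earlier results of these data known, and looked up by symbol. Each had a row in all 4 deposited tables, which together hold 22725 gene names. FPKM (fragments per kilobase of transcript, scaled to the mapped fragments) is corrected for length, so levels of different genes can be set side by side. In RNA amplified from few cells, as here, such a comparison between genes is approximate.

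Oocytes arise from primordial germ cells (PGCs), which colonise the fetal gonad, enter meiosis in the ovary and are later enclosed in primordial follicles. Sohlh1, Sohlh2 and Figla encode basic helix-loop-helix (bHLH) proteins, which bind DNA as dimers at short E-box elements. Nobox and Lhx8 encode homeodomain proteins, and Taf4b encodes a subunit of the general factor TFIID that is enriched in gonads. In mice, loss of any of these genes impairs the formation, survival or growth of oocytes, and Sohlh1 and Sohlh2 also act in spermatogonia.

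All cells were PGCs of C57BL/6 mouse embryos. Wild-type libraries came from E9.5 (2 libraries), from E11.5 (2) and from E13.5, of which 3 carried the label E13.5m and 3 carried no sex. Cells with the genotype Tet1 -/- came from E13.5 (2 libraries) and lack an enzyme that oxidises 5-methylcytosine. The E13.5f column is used under the name its table gives, as no library title carries it. It closely matched the wild-type values of the knockout table after multiplying those by a median of 0.962 over 10996 genes (5th to 95th percentile of the factor: 0.946 to 1.03), so any rise at E13.5f and a fall in Tet1-KO share almost the same wild-type values. The labels do not give the sex of the E9.5, E11.5 and Tet1-KO embryos. They also give neither how PGCs were purified, nor whether embryos were pooled, nor which cells lost Tet1. A difference in sex between the Tet1-KO and wild-type libraries could not be tested apart from the loss of Tet1. RNA came from 400 to 5000 cells for E9.5, E11.5 and E13.5m and from 500 to 2000 cells for the other groups.

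Each group had 1 FPKM value made by the authors from all its libraries, so no spread of a level over libraries can be given and the sequencing depth is unknown. The SE beside a log2 ratio is the one implied by the deposited Cuffdiff test, and a gene was called where the adjusted p of that test was under 0.05. The labels do not say that replicate libraries were made from different embryos, and the test may measure technical spread. In bulk RNA, fewer cells that express a gene and less RNA per cell cannot be told apart. The level of Tet1 itself was 6.36 FPKM in the wild type of the knockout table and 0.218 FPKM in Tet1-KO. All 10 germ cell markers examined, among them Dazl, Ddx4 and Dppa3, were above 1 FPKM in every group. The median gene at 1 FPKM or more shifted by 0.32 (E9.5 to E11.5), 0.19 (to E13.5f), 0.02 (to E13.5m) and -0.38 (wild type to Tet1-KO) on the log2 scale.

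Sohlh2 was by far the most abundant of the 6 genes from E11.5 on, and the one that passed the test in 3 of the 4 tables. On the scale of the E13.5f table its level was 1.27 FPKM at E9.5, 99.1 at E11.5, 176 at E13.5m and 310 at E13.5f. The knockout table gave 326 FPKM for wild type and 113 FPKM for Tet1-KO. The E9.5 value lay near the middle of the table, above 55.6% of rows, whereas the E13.5f value was above 98.1% of rows. The next highest member at E13.5f was Taf4b, at 12.0 FPKM.

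**Figure D1:**
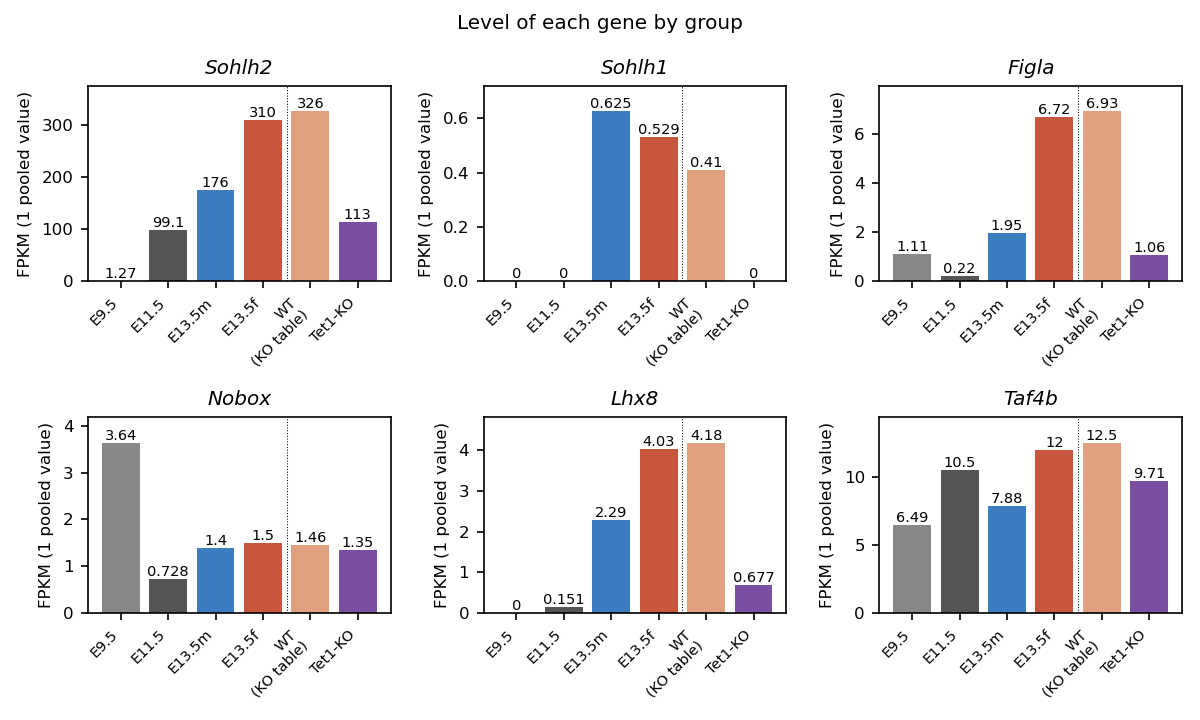
FPKM of the 6 genes in each group, 1 pooled value per bar with no error available; bars left of the dotted line are on the scale of the E13.5f table, bars right of it are the wild-type (WT) and Tet1-KO values of the knockout table. Sohlh2 goes from 1.27 at E9.5 to 310 at E13.5f, while Nobox is highest at E9.5 with 3.64.

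The rise of Sohlh2 (chromosome 3, 54985965 to 55013879, build mm9) between E9.5 and E11.5 was 6.29 ± 1.05 (SE) as a log2 ratio, the 41st highest of 12145 genes with a ratio, with an adjusted p of 5.28e-07 in the authors' deposited table. It rose again from E11.5 to E13.5f, by 1.64 ± 0.40 (SE) on the log2 scale, with an adjusted p of 0.00149 in the authors' deposited table. Towards E13.5m the log2 ratio was 0.83 ± 0.42 (SE) and was not called (adjusted p of 0.286 in the authors' deposited table), with a 95% interval from 0.01 to 1.65. Against wild type, Sohlh2 fell by 1.53 ± 0.35 (SE) in Tet1-KO (FDR 0.00109, the authors' deposited table). Relative to the table median its log2 ratio was -1.15, with a weaker adjusted p of 0.0326 in a normal test with the same SE. Of 10 germ cell markers, 1 fell in the same table and 1 rose, beside 5.48% and 0.677% of all tested genes. Dazl fell from 1491 to 671 FPKM and Tfap2c rose from 122 to 226 FPKM. Relative to the table median, Sall4 was called higher as well. The summed level of the 10 markers was 4072 FPKM (wild type) against 2940 FPKM (Tet1-KO), with Dazl a large part of the difference. The part of germ cell content in the Sohlh2 value was not tested. The knockout value, brought to the scale of the E13.5f table with the factor 0.962, was 109 FPKM, beside 99.1 FPKM at E11.5; these come from separately normalised tables and were not tested against each other.

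Sohlh1, the partner of Sohlh2 (chromosome 2, 25698516 to 25702768), was close to the floor of the data. The tables list it at 0 at E9.5, at E11.5 and in Tet1-KO. Its values as deposited were 0.641 FPKM for E13.5m, 0.529 for E13.5f and 0.410 for wild type beside the knockout. None of its comparisons was called: the adjusted p was 0.251 for E13.5f, 0.418 for E13.5m and 0.336 for Tet1-KO in the authors' deposited tables. The E9.5 to E11.5 comparison had no completed test. At E13.5f the level of Sohlh2 was thus 310 FPKM and that of Sohlh1 below 1 FPKM.

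Figla (chromosome 6, 85967184 to 85970990), whose product activates the zona pellucida genes of oocytes, was 1.11 FPKM at E9.5, 0.220 at E11.5, 1.95 at E13.5m and 6.72 at E13.5f on the scale of the E13.5f table. The rise from E11.5 to E13.5f was 4.93 ± 1.34 (SE) in log2 terms, with an adjusted p of 0.00529 in the authors' deposited table, and ranked 80th of 11989 ratios. On the log2(FPKM + 1) scale the same change was 2.66, since the E11.5 level was low. Its log2 ratio towards E13.5m was 3.15 ± 1.63 (SE) and was not called, with an interval from -0.05 to 6.35. Figla values beside the knockout were 6.93 FPKM for wild type and 1.06 FPKM for Tet1-KO. That log2 ratio of -2.71 ± 1.18 (SE) did not pass (FDR 0.148, the authors' deposited table). From E9.5 to E11.5 the log2 ratio of -2.34 ± 1.77 (SE) was not called.

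Lhx8 (chromosome 3, 153969257 to 153993524), a LIM homeodomain gene that germ cells need to form growing follicles, was listed at 0 at E9.5 and was 0.151 FPKM at E11.5, 2.29 at E13.5m and 4.03 at E13.5f on the scale of the E13.5f table. Its E9.5 to E11.5 comparison had no completed test. It rose to E13.5f by 4.74 ± 1.32 (SE) as a log2 ratio, with an adjusted p of 0.00691 in the authors' deposited table. Towards E13.5m the ratio was 3.93 ± 1.40 (SE), with an adjusted p of 0.0809 in the authors' deposited table, and was not called. Wild type was at 4.18 FPKM and Tet1-KO at 0.677 FPKM, a log2 difference of -2.63 ± 0.93 (SE) that was not called (FDR 0.0627, the authors' deposited table). This comparison lay just outside the threshold, and it passed (adjusted p of 0.0466) when the deposited p-values were adjusted again over only the 11449 genes at 1 FPKM or more in either group.

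Nobox (chromosome 6, 43253672 to 43259553), a homeobox gene of primordial and growing oocytes, had a different order of levels. Its highest value was at E9.5, with 3.64 FPKM, followed by 1.5 at E13.5f, 1.40 at E13.5m and 0.728 at E11.5 on the scale of the E13.5f table. None of its 4 comparisons was called. The E9.5 to E11.5 log2 ratio was -2.32 ± 1.02 (SE), with an unadjusted p of 0.0232 and an adjusted p of 0.172 in the authors' deposited table. Towards E13.5f it was 1.04 ± 0.97 (SE) and towards E13.5m 0.94 ± 1.10 (SE). Tet1-KO and wild type were at 1.35 and 1.46 FPKM, with an interval of the log2 ratio from -1.87 to 1.64.

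The 2 members with higher values at E9.5 than at E11.5, Nobox and Figla, were seen in the stage with the most blood-cell RNA. Of 6 blood markers, 4 had a completed test and all 4 fell from E9.5 to E11.5, beside 1.92% of all tested genes. The summed level of the 6 was 1994 FPKM at E9.5 and 23.1 FPKM at E11.5. The leukocyte marker Ptprc was listed at 0 in both groups. Whether blood cells contributed to the Nobox and Figla values was not tested.

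Taf4b (chromosome 18, 14941753 to 15058868) varied least among the members that were present in every group. It was 6.49 FPKM at E9.5, 10.5 at E11.5, 7.88 at E13.5m and 12.0 at E13.5f on the scale of the E13.5f table. Wild type beside the knockout had 12.5 FPKM, and Tet1-KO had 9.71 FPKM. None of the 4 comparisons was called, and the 95% intervals of the log2 ratio ran from -0.80 to 1.18 for E13.5f, from -1.42 to 0.59 for E13.5m and from -1.14 to 0.41 for Tet1-KO. Its more widely expressed paralogue Taf4a was lower in every group, between 1.63 FPKM at E13.5m and 3.77 FPKM at E9.5 on the same scale.

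As a group, 1 of 4 members with a completed test rose from E9.5 to E11.5, where 5.63% of 12904 tested genes were called, 3.71% higher and 1.92% lower. From E11.5 to E13.5f, 3 of 6 rose and 0 fell, where 12.0% of 12448 tested genes were called, 9.34% higher and 2.68% lower. From E11.5 to E13.5m, 0 of 6 passed the Cuffdiff test, 2 of them (Sohlh2 and Lhx8) having an unadjusted p under 0.05. Here, 4.88% of 12311 tested genes were called, 2.94% higher and 1.94% lower. In Tet1-KO 1 of 6 fell, and Figla and Lhx8 also had an unadjusted p under 0.05. There, 6.16% of 16394 tested genes were called, 0.677% higher and 5.48% lower. Relative to the table median the split of calls over all genes was 234 higher and 342 lower at E11.5 (479 and 248 as deposited), 817 and 489 at E13.5f (1163 and 333), and 264 and 233 in Tet1-KO (111 and 899). The member calls were the same ones relative to the median: Sohlh2 at E11.5, Figla, Sohlh2 and Lhx8 at E13.5f, and Sohlh2 in Tet1-KO. The median change of the 6 members in log2(FPKM + 1) was 0.12, 1.12, 0.77 and -1.01, in that order, beside 0.29, 0.22, 0.05 and -0.21 over all tested genes. With a pseudocount of 0.1 in place of 1 the member medians were 0.35, 2.15, 1.77 and -1.94. Both E13.5 comparisons use the same E11.5 libraries, so they are not independent. As the members were chosen with earlier results of these data known, their counts and medians beside those of all genes are a description only.

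**Figure D2:**
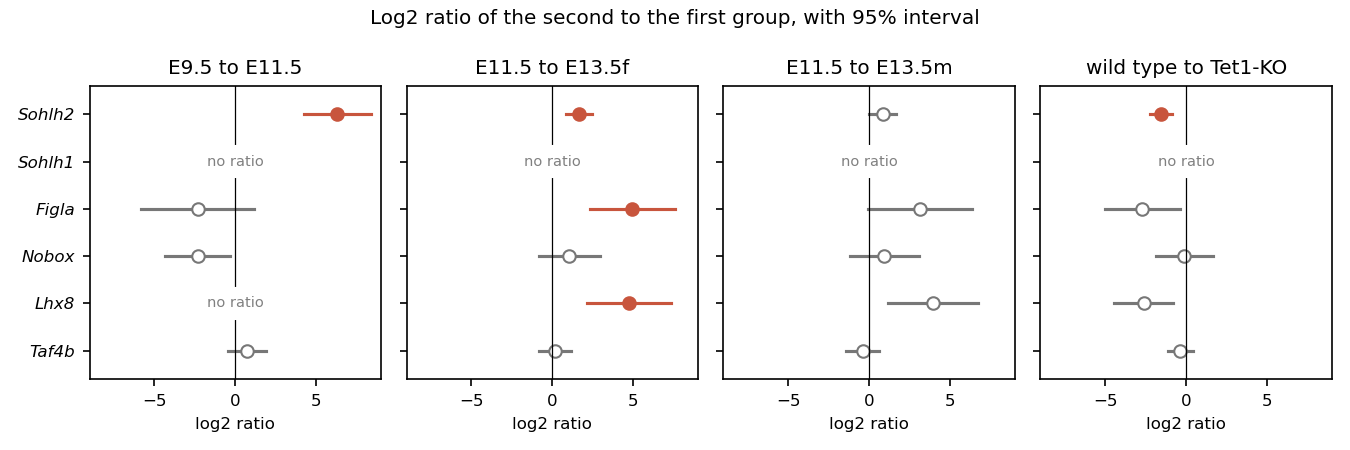
Log2 ratio of the second to the first group for each gene in the 4 tables (x axis), with the 95% interval from the deposited test as a line; filled points were called by the authors' test, open points were not, and "no ratio" marks genes listed at 0 in a group. Sohlh2, Figla and Lhx8 are called in the E13.5f panel, and none in the E13.5m panel.

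No table compares E13.5m with E13.5f, so the difference of their log2 ratios against E11.5 was tested for 10677 genes with Benjamini-Hochberg adjustment, and 0.169% of them passed. Of the 5 members with a ratio for each sex label, 0 passed and 0 had an unadjusted p under 0.05. Sohlh2, at 176 FPKM (E13.5m) and 310 FPKM (E13.5f), gave a difference of -0.82 ± 0.58 (SE) on the log2 scale with an interval from -1.96 to 0.32. For Figla, at 1.95 and 6.72 FPKM, the difference was -1.79 ± 2.11 (SE), with an interval from -5.93 to 2.35. Lhx8 gave -0.81 ± 1.93 (SE), Nobox -0.10 ± 1.46 (SE) and Taf4b -0.61 ± 0.72 (SE). The point values of all 5 were lower in E13.5m (Nobox higher, by 0.071, relative to the table medians), although their intervals cover 0 and, for Figla and Lhx8, differences of several log2 units either way.

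Promoter windows of 300 bases, from 250 before to 50 after the start, were found for 5 of the 6 genes in the RefSeq table of build GRCm38.p6. The windows of the 3 genes called together at E13.5f are printed 5′ to 3′ with that of Sohlh1, the gene with the most E-boxes. Capitals mark every E-box, CANNTG, which is the same motif on both strands. They lie at chr6:86016941-86017240 on the plus strand (Figla), chr3:55181794-55182093 on the plus strand (Sohlh2), chr3:154330511-154330810 on the minus strand (Lhx8) and chr2:25847199-25847498 on the minus strand (Sohlh1).
Figla: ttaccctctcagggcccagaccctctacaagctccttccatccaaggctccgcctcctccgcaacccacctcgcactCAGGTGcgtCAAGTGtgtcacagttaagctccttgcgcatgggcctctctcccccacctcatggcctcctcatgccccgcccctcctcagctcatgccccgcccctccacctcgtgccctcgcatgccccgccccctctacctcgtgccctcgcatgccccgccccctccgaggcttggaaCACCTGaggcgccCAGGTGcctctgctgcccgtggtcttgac
Sohlh2: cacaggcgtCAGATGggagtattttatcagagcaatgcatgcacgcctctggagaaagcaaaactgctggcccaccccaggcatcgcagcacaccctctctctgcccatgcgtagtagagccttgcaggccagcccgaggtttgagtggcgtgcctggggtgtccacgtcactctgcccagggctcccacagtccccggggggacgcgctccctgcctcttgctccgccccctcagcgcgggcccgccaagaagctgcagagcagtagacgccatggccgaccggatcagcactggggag
Lhx8: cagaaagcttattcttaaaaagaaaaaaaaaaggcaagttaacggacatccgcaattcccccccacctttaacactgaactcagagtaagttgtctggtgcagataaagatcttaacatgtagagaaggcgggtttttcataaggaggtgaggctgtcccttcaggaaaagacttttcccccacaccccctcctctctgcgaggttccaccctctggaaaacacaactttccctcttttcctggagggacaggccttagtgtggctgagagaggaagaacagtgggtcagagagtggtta
Sohlh1: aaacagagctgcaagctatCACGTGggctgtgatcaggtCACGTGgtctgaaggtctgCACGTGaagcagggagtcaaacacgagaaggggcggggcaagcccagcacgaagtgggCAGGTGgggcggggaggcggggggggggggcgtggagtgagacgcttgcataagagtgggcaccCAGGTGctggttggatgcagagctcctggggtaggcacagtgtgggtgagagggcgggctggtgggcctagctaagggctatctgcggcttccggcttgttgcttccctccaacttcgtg

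E-boxes were spread unevenly over these windows. Sohlh1 held 5, Figla 4, Nobox 2, Sohlh2 1 and Lhx8 0, counted over overlapping matches. Among all 32851 windows of the same length, 72.3% held at least 1 E-box, 6.49% at least 4 and 2.10% at least 5. In Sohlh1, 3 of the 5 were the form CACGTG, at positions -231, -211 and -192 (position 0 is the first of the 50 bases after the start). A window with at least 3 CACGTG made up 0.0883% of all, and this form is also counted within CANNTG. The homeodomain elements TAATTG and TAATTA, and the TATA box TATAAA, searched on both strands, were in none of the 5 windows, beside 8.0%, 5.29% and 13.6% of all windows. The CG dinucleotide, the site of DNA methylation, occurred 17 times in Sohlh2, 16 in Figla, 14 in Sohlh1, 13 in Nobox and 4 in Lhx8, beside a median of 7. The 3 genes called together at E13.5f thus had from 0 to 4 E-boxes and from 4 to 17 CG dinucleotides. No methylation or binding was measured in these libraries, and a match of letters is a description only.

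**Figure D3:**
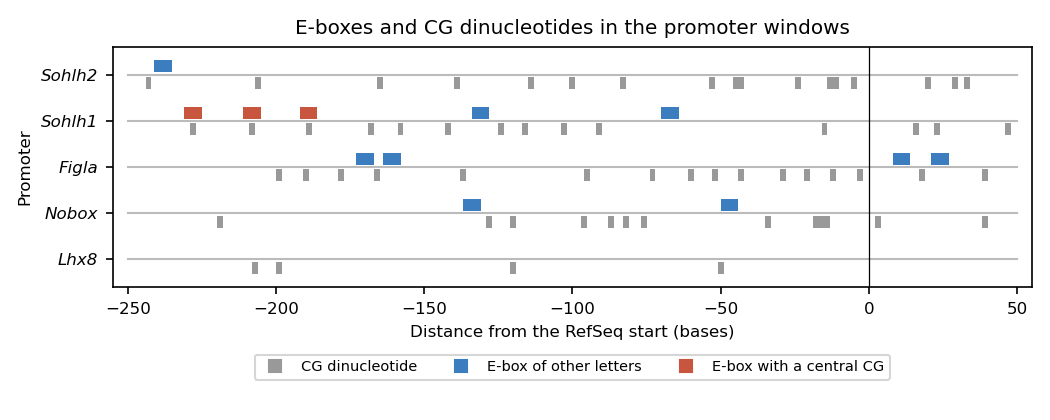
Position of E-boxes (blue, or red for the form with a central CG pair) and of CG dinucleotides (grey) in the promoter windows of 5 genes; the x axis is the distance in bases from the RefSeq start. The 3 red boxes are all in Sohlh1, and Lhx8 has no E-box and 4 CG dinucleotides.

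The genes with the most similar pattern were found by the smallest Euclidean distance over the 4 changes in log2(FPKM + 1), among genes at 5 FPKM or more in some column. For Sohlh2 they were Trap1a at a distance of 1.34, Tuba3a, an alpha tubulin gene, at 1.47 and Gm41 at 1.54. For Lhx8 they were Ccdc73 at 0.0897, Tradd, an adaptor gene of TNF receptor signalling, at 0.373 and Nsdhl, a cholesterol synthesis enzyme, at 0.425. Ccdc73 was 0.607 FPKM at E11.5 and 5.96 FPKM at E13.5f in 1 table, and 6.33 FPKM (wild type) against 1.5 FPKM (Tet1-KO) in another. Figla was closest to Leprel4 at 0.429, Fam69b at 0.460 and Cib2 at 0.470. The nearest genes to Nobox were Cldn5, a tight junction gene, at 0.348, Prdm1, which specifies PGCs, at 0.375 and Zc3h7b at 0.385. Prdm1 was 11.4 FPKM at E9.5 and 3.62 FPKM at E11.5 in their table. Taf4b was nearest to Aldh2 at 0.133, 2310016M24Rik at 0.153 and A430005L14Rik at 0.173, and Sohlh1 to Smyd4 at 0.117, Tmem33 at 0.163 and Rnf182 at 0.167. The closest gene to Sohlh2 was at 1.34, whereas the 3 closest to each of the other 5 members lay within 0.470. These distances depend on level, since changes near 0 FPKM are small on this scale, while Sohlh2 changed by 5.55 from E9.5 to E11.5. A short distance also need not mean a like fold change. From E11.5 to E13.5f, Smyd4 went from 19.6 to 30.3 FPKM and Sohlh1 from 0 to 0.529 FPKM.

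The genes of general bHLH partners, Tcf3, Tcf4 and Tcf12, were above 0 FPKM in every group, whereas Sohlh1, the partner of Sohlh2, was not. The E-protein gene Tcf3, which encodes a general bHLH partner, was between 124 FPKM at E9.5 and 182 FPKM at E13.5f on the scale of the E13.5f table, and its tests in the stage tables had failed. In Tet1-KO it fell by 0.50 ± 0.14 (SE) on the log2 scale, and was not called relative to the table median. Id proteins bind bHLH partners without binding DNA. Of 5 tested genes in the partner and inhibitor list 2 rose to E13.5f, Id1 from 49.7 to 233 FPKM and Id2 from 24.3 to 79.9 FPKM, and 0 of 5 passed the Cuffdiff test towards E13.5m, 1 having an unadjusted p under 0.05. Among all tested genes, 9.34% rose to E13.5f and 4.88% passed towards E13.5m. The Id1 change differed between E13.5m and E13.5f by -2.97 ± 0.73 (SE), with an adjusted p of 0.0337 in the test of log2 ratios across 10677 genes. At E13.5f, Sohlh2, Figla, Id1 and Id2 were thus all called higher than at E11.5.

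LIM homeodomain proteins such as LHX8 work with the cofactor LDB1 and single-stranded DNA-binding proteins, and LMO proteins bind the same cofactor. In this list of 16 genes, 5 of 12 tested rose to E13.5f and 0 fell (4 relative to the table median), and 3 of 13 rose to E13.5m and 0 fell. Over all tested genes, 9.34% rose to E13.5f and 2.94% to E13.5m. Lmo1 rose in both tables, by 3.05 ± 0.79 (SE) on the log2 scale to E13.5f and by 3.61 ± 0.78 (SE) to E13.5m, and fell by 2.72 ± 0.74 (SE) in Tet1-KO. Ssbp3 rose likewise, from 14.0 to 49.3 FPKM at E13.5f and from 14.4 to 43.4 FPKM at E13.5m. Lhx2 rose from 1.24 to 10.9 FPKM at E13.5f and fell from 11.4 to 1.74 FPKM in Tet1-KO. Lmo4 and Lmo2 also rose to E13.5f, to 15 and 7.76 FPKM, Lmo2 not relative to the median. Lhx1 rose from 0.183 to 8.91 FPKM between E9.5 and E11.5 and from 7.94 to 30.8 FPKM towards E13.5m. In Tet1-KO 6 of 15 tested fell and 0 rose, beside 5.48% and 0.677% of all tested genes. Those that fell were Lmo1, Lmo4, Lhx2, Lhx3, Lhx6 and Ssbp2, of which Lmo1 and Lhx2 were called relative to the median. The locus of Ssbp2 overlaps 2 other rows. Ldb1 was between 41.0 and 56.1 FPKM in the stage tables as deposited.

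The 18 TFIID and TBP-related genes included 1 large change, in Taf7l, a germ cell paralogue of Taf7. On the scale of the E13.5f table it was listed at 0 at E9.5 and was 1.81 FPKM at E11.5, 24.6 at E13.5m and 85.7 at E13.5f. Taf7l rose by 5.56 ± 0.70 (SE) to E13.5f and by 3.76 ± 0.72 (SE) to E13.5m, and fell by 3.77 ± 0.48 (SE) in Tet1-KO, from 89.6 to 6.58 FPKM, all on the log2 scale. Taf7 fell from 88.3 to 34.7 FPKM at E13.5f, but its deposited locus overlaps 60 other rows, so this value is uncertain. Taf9b rose from 2.38 to 11.8 FPKM towards E13.5m. Counts were 1 up and 1 down of 16 tested at E13.5f, 2 up of 16 at E13.5m and 0 of 17 from E9.5 to E11.5, where 3 had an unadjusted p under 0.05. Over all tested genes 12.0%, 4.88% and 5.63% were called in these tables, in that order, and 6.16% in Tet1-KO. In Tet1-KO 3 of 16 fell, Taf7l, Taf6 and Taf12; relative to the median Taf7l alone did. The locus of Taf6 overlaps 1 other row. Tbpl2, the TBP relative of oocytes, was listed at 0 in all 3 stage tables.

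**Figure D4:**
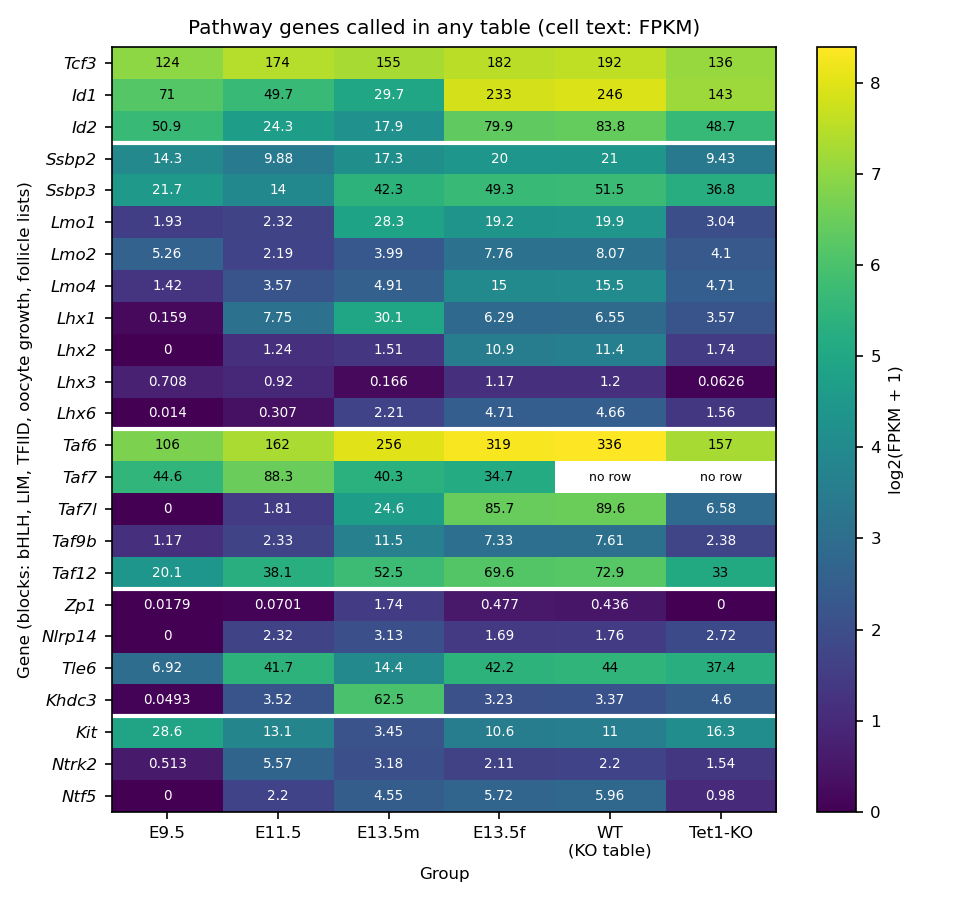
FPKM (cell text; colour, log2(FPKM + 1)) of genes of the 5 pathway lists that were called in at least 1 table, by group, with stage groups on the scale of the E13.5f table and the WT and Tet1-KO columns as deposited; "no row" marks a gene that the knockout table does not list. Taf7l goes from 0 at E9.5 to 85.7 at E13.5f and is 6.58 in Tet1-KO, and Khdc3 is 62.5 in E13.5m.

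Genes of the growing oocyte, several of which FIGLA or NOBOX is known to activate, were mostly near 0. Of 20 zona and oocyte growth genes, 15 were under 1 FPKM at E11.5, 15 at E13.5f and 15 at E13.5m. At E13.5f the zona genes Zp1, Zp2 and Zp3 were at 0.477, 0.179 and 0.726 FPKM and the growth factor gene Gdf9 at 0.425 FPKM, while Oosp1 was listed at 0. Zp1 rose from 0.0718 to 1.78 FPKM towards E13.5m. At E13.5f, 0 of 8 tested passed the Cuffdiff test (1 had an unadjusted p under 0.05), while 2 of 9 rose at E13.5m and 0 of 14 passed in Tet1-KO, where 3 had an unadjusted p under 0.05. The shares over all tested genes were 12.0% called at E13.5f, 2.94% higher at E13.5m and 6.16% called in Tet1-KO. Genes of the subcortical maternal complex of the egg were at unequal levels. Nlrp5 was 0.209 FPKM and Padi6 0.183 FPKM at E13.5f, and neither was called in any table. Ooep, not called in any table either, went from 7.85 to 9.51 FPKM at E13.5f and from 8.05 to 15.7 FPKM at E13.5m. Tle6 rose from 7.96 to 48.0 FPKM between E9.5 and E11.5, and was 42.2 FPKM at E13.5f and 14.8 FPKM at E13.5m (not called). Khdc3, listed as 2410004A20Rik, rose from 0.0566 to 4.04 FPKM in that interval and from 3.60 to 64.0 FPKM towards E13.5m. At E13.5f it was 3.23 FPKM, and the E13.5m change was larger than the E13.5f change by 4.27 ± 0.93 (SE) on the log2 scale, with an adjusted p of 0.00391 in the test of log2 ratios. Nlrp14, listed at 0 at E9.5, was called higher at E11.5, at 2.67 FPKM.

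Among 15 regulators of primordial follicles, 1 of 12 tested was called from E9.5 to E11.5, 1 of 10 at E13.5m and 1 of 15 in Tet1-KO. The shares over all tested genes were 5.63%, 4.88% and 6.16%, in that order. Kit, the receptor of a ligand made by follicle cells, fell from 13.4 to 3.53 FPKM towards E13.5m and was 13.1 and 10.6 FPKM at E11.5 and E13.5f. Ntrk2, a neurotrophin receptor gene, rose from 0.590 to 6.41 FPKM between E9.5 and E11.5. Its ligand gene Ntf5 fell from 5.96 to 0.980 FPKM in Tet1-KO. Neither the Ntrk2 nor the Ntf5 change was called relative to the table median. No gene of this list passed the Cuffdiff test at E13.5f (of 12 tested, 0), where 2 had an unadjusted p under 0.05. Of all tested genes, 12.0% were called there.

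Some markers of gonadal somatic cells rose in the same tables. At E13.5f, Irx3 alone of these markers was above both Figla and Lhx8. At E13.5m, Rspo1 and Amh were above both. The summed level of 6 female soma markers was 2.70 FPKM at E11.5 and 13.1 FPKM at E13.5f, where Irx3 rose and made up 8.46 FPKM, and 13.6 FPKM (wild type) against 17.0 FPKM (Tet1-KO). At E13.5m the same markers summed to 10.6 FPKM, from 2.76 FPKM at E11.5, and Rspo1 rose from 0.471 to 7.38 FPKM. Foxl2, the defining granulosa gene, was 0.183 FPKM at E13.5f and listed at 0 at E11.5 and E13.5m. The 6 male soma markers summed to 0.249 FPKM at E11.5 and 2.37 FPKM at E13.5f in 1 table, and to 0.255 FPKM at E11.5 and 7.39 FPKM at E13.5m in the other, where Amh rose to 4.01 FPKM. The 5 markers of both sexes' soma summed to 1.67 and 2.42 FPKM at E11.5 and E13.5f, with Emx2 called higher, though not relative to the median. In the knockout table they summed to 2.38 FPKM (wild type) and 4.30 FPKM (Tet1-KO), with 0 of 5 called. Of these, 1 (Gata4) had an unadjusted p under 0.05 in the Cuffdiff test. The 2 male soma markers with a row there summed to 0.816 FPKM (wild type) and 0.194 FPKM (Tet1-KO). Endothelial markers summed to 72.1 FPKM at E11.5 and 68.8 FPKM at E13.5f, of which Pecam1, also made by PGCs, was 61.5 and 67.7 FPKM, and Esam and Tek fell. Their part in the changes of Sohlh2, Figla and Lhx8 was not tested.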

How the data were processed

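RNA of mouse PGCs was amplified from few cells and sequenced, per the labels' protocols, which can add noise to low values. Bowtie, TopHat 1.3.1, Cufflinks and Cuffdiff (1.2.1 and 1.0.3) and build mm9 are named in the submitters' processing notes. Per the file headers, each of 4 tables deposited by the authors holds an FPKM for either group, a p-value and an adjusted p-value or FDR. The stage tables also hold a test score deposited by the authors. Of the FDR values, 2182 exceed 1.

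Calls were made where the adjusted p or FDR deposited by the authors was under 0.05 in a completed test. Log2 ratios were computed from FPKM, and SEs from the score or, for the knockout, from the normal deviate of the p-value where above 0.05. No ratio was made for a gene at 0. Stage levels were brought to 1 scale with the E11.5 columns (factors 0.870 and 0.976). The E13.5m and E13.5f difference used a two-sided normal test in which the shared E11.5 error enters both SEs, so it is conservative. Its recovery of known differences was tested on simulated data with independent errors. Nlrp5, Padi6 and Ooep were named after their values were seen.

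The members and lists were chosen with earlier results of these data known. Named from each list were genes called in any table and up to 4 others, the highest or those at 0. Taf4a was named after its values were seen. Khdc3 and Tfap2c were matched by older symbols from RefSeq. As alternatives, the threshold was set to 0.01, p-values were adjusted anew, and use was made of minima of 1 FPKM or of 1 in log2 ratio, centring, and pseudocounts of 1 and 0.1. Software was scipy 1.17.1, pandas 2.3.3 and numpy 2.4.6 under Python 3.11.15, with figures by matplotlib 3.10.9.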

Additional observations from a re-analysis of the deposited data

Results flagged for a closer look

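The changes from E11.5 differed between E13.5m and E13.5f, by the test of the difference itself, for 18 of 10677 genes. Of these, 2 belong to the gene lists described here. Id1 had a difference of -2.97 on the log2 scale (E13.5m minus E13.5f), with 29.7 FPKM (E13.5m) and 233 FPKM (E13.5f). Khdc3, listed as 2410004A20Rik, had a difference of 4.27, with 62.5 FPKM (E13.5m) and 3.23 FPKM (E13.5f). Neither is among the 6 oocyte regulators.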

How the results depend on the processing

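Some of the 23 recomputations could not change the number of the 6 genes called. Where 0 were called, a stricter threshold or a minimum log2 ratio can only return 0. Adjusting the stage p-values anew gave nearly the same adjusted p. Counting these, the number called kept within 1.5 times its value in 22 of 23 recomputations. The exception was Tet1-KO with a minimum of 1 FPKM, where 2 genes were called, Sohlh2 and Lhx8, as fewer genes were tested; the adjusted p of Lhx8 ran from 0.0466 to 0.176 over its alternatives. At a threshold of 0.01, 348, 699, 296 and 371 genes were called in place of 727, 1496, 601 and 1010 (E11.5, E13.5f, E13.5m, Tet1-KO), with the same member calls. Centring left 497 calls in Tet1-KO, with Sohlh2 at an adjusted p of 0.0326 in the normal test. Centring on the table median turned 4 uncalled values around: Taf4b to -0.0025 at E13.5f and 0.014 in Tet1-KO, Nobox to 0.26 in Tet1-KO and to 0.071 for E13.5m minus E13.5f. With log2(FPKM + 1) the E13.5f change of Lhx8 was 2.13 and its Tet1-KO change -1.63. No paired analysis was possible because the tables hold 1 pooled value per group, and for the same reason no library could be left out. Levels near 0 at an unknown depth limit the ratios of Figla, Lhx8, Nobox and Sohlh1.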
